A study of Homo sapiens with 6 samples.

Results

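The genes described here are 10 AP-1 and immediate early genes, chosen by symbol from a deposited table of 16070 genes. They are the AP-1 subunit genes JUN, JUNB, JUND, FOS, FOSB, FOSL1 and FOSL2, and the genes EGR1, IER2 and IER3. All 10 were listed, and 9 passed the filter of a mean of at least 0.5 FPKM (fragments scaled by gene length and library total) over the 6 libraries; FOSB, at 0.484 FPKM, did not. The cells were NCI-H1299, a human line long established from a non-small cell lung cancer. They had been exposed for 48 h to 25 µM 6p, a derivative of the antibacterial natural product platensimycin (3 libraries), or to vehicle, 0.1% DMSO (3 libraries, called control here; another label field calls them untreated). The labels give no DMSO content for the 6p samples. The labels call the samples of each group independent and do not say whether they were separate cultures, so the p-values measure only the spread between these libraries. The line is 1 cell line and there was 1 dose and 1 time, so nothing here shows the order in which genes moved.

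AP-1 is a dimer of basic leucine zipper proteins. JUN proteins pair with one another or with FOS proteins, FOS proteins need a JUN partner, and the dimer binds the sequence TGAGTCA or its reverse complement TGACTCA. Immediate early genes are those transcribed within minutes of a growth factor or stress signal without new protein synthesis. FOS and EGR1 are the classical examples, read through serum response factor (SRF) with its ternary complex factors, while FOSL1, which encodes FRA-1, is known to stay high in carcinoma cells with active RAS and ERK signalling.

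Promoter stretches are shown for EGR1, JUN, JUND, JUNB and FOSL2, which differed between groups, so that motifs known from this gene family can be looked for. IER2 also differed and had a window, but its stretch is not shown. RefSeq windows on GRCh38.p14, from 250 bases before to 50 after each gene's start, were held for 8 of the 10 members (not for FOSL1 and IER3). The stretches below run from 220 bases before to 15 bases after the start, on the strand of the gene. They are chr5:138465259-138465493 (plus strand), chr1:58784033-58784267 (minus strand), chr19:18281608-18281842 (minus strand), chr19:12791266-12791500 (plus strand) and chr2:28392638-28392872 (plus strand). Capitals mark motif matches.
EGR1: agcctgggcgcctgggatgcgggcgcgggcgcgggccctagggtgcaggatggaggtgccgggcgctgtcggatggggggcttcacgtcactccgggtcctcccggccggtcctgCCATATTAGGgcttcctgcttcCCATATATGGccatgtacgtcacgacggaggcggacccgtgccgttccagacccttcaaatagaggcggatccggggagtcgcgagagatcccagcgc
JUN: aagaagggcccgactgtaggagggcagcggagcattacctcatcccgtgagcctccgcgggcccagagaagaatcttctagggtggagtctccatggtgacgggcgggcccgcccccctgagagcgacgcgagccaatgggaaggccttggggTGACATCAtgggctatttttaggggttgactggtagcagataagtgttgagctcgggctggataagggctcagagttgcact
JUND: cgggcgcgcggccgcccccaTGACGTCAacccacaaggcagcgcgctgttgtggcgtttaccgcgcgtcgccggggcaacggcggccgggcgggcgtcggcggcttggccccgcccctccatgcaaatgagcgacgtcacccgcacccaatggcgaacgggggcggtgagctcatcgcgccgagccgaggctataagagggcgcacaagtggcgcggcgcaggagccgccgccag
JUNB: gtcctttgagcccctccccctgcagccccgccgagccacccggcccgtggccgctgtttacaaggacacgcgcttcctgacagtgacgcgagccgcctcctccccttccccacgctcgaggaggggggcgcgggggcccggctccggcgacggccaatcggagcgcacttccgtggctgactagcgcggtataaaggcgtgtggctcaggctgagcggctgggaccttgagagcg
FOSL2: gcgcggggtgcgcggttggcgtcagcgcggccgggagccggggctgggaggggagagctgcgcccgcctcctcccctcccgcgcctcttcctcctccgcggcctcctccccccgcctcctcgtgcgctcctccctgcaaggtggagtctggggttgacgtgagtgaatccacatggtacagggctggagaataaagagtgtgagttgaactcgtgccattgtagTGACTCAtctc

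EGR1 held 2 CArG boxes, the binding sequence of SRF, at 105 to 96 and 83 to 74 bases before the start. A CArG box was found in 1.29% of the 27303 windows of this length. JUN held TGACATCA, the AP-1-like element known from its promoter, at 67 to 60 bases before the start; this sequence or its reverse complement TGATGTCA stood in 2.71% of windows. JUND held the cyclic AMP response element TGACGTCA, 200 to 193 bases before the start, which stood in 1.98% of windows. FOSL2 held TGACTCA at bases 5 to 11 of the transcript, and TGAGTCA or TGACTCA stood in 4.92% of windows. JUNB, FOS, FOSB and IER2 held no exact match to the motifs searched within their windows. Only exact letters were matched, so near forms of TGACGTCA, such as TGACGTTT in FOS and TGACGTAA in FOSB, did not count. Sequence farther upstream was not searched, so a CArG box of FOS lying there would have been missed. The absence of a match therefore does not show that these promoters lack the motifs. In none of the 8 windows was there a match to TGATGNAA or its reverse complement TTNCATCA, the core of the amino acid response element (3.67% of windows), or to the EGR sequences GCGTGGGCG and GCGGGGGCG on either strand (5.70% of windows). These are matches of letters in a short window and show no binding.

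In 6p-treated cells the JUN family, EGR1, IER2 and IER3 were higher and FOSL1 and FOSL2 lower, while FOS and FOSB stayed at low levels with overlapping groups. Of the 9 tested members, 6 rose and 2 fell at an adjusted p under 0.05 in limma. Over all 11745 tested genes 46.5% changed, 21.3% higher and 25.1% lower, so a changed gene is common in this comparison. The values of the groups did not overlap for 8 of the 10 members, against 57.5% of tested genes. The median log2 fold change was 0.35 for the 9 members and -0.04 for all tested genes. After rescaling to TPM, which shifts the median of all genes by -0.17 and the counts over all genes from 2506 higher and 2951 lower to 1526 and 3991, 4 members were higher and 2 lower. Relative to the median of all genes the members' median was 0.39 on the deposited scale and 0.39 after rescaling to TPM. Since TPM multiplies each library by 1 factor, this difference could hardly change. With the trend on gene length removed the difference was 0.34. In bulk RNA, fewer cells carrying a transcript and less RNA per cell cannot be told apart.

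**Figure D1:**
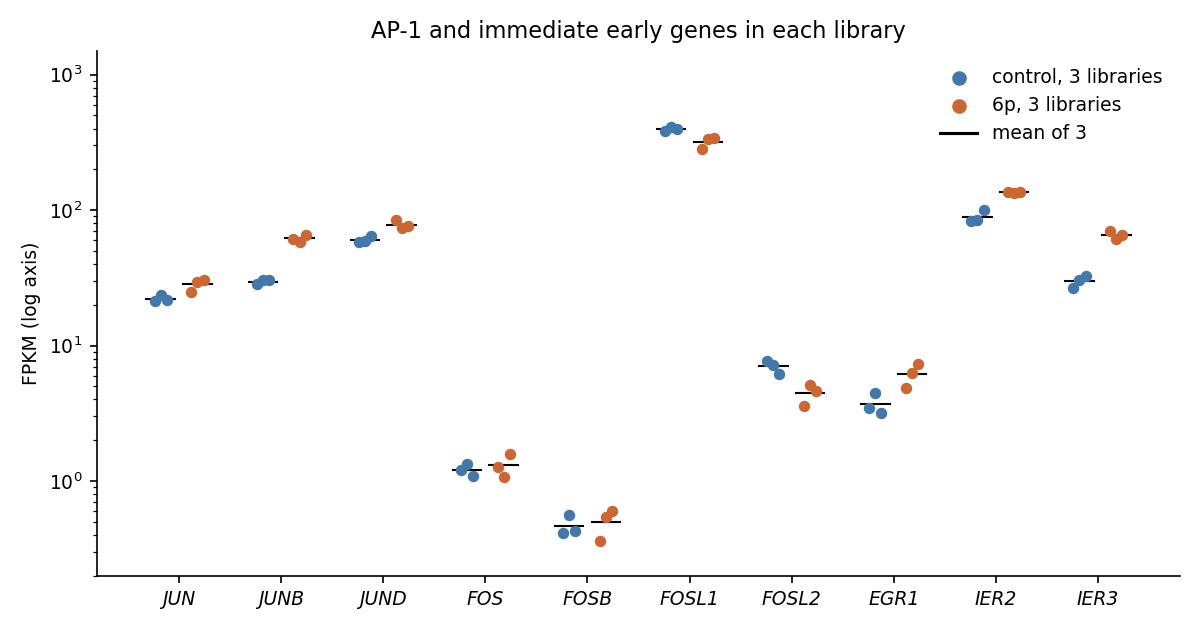
FPKM (log axis) of the 10 members in each of the 3 control and 3 6p libraries; points are libraries and bars the group means. The groups do not overlap for JUN, JUNB, JUND, FOSL1, FOSL2, EGR1, IER2 and IER3, and overlap for FOS and FOSB.

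JUNB changed most in its family. It encodes the JUN protein best known for restraining growth, and its levels were 28.3, 30.2 and 30.4 FPKM in control replicates 1 to 3 and 61.1, 58.4 and 66.0 FPKM in 6p replicates 1 to 3. Every 6p library lay above every control library. The mean went from 29.7 ± 1.17 to 61.8 ± 3.85 FPKM (SD, n = 3 in each group), a log2 fold change of 1.03 ± 0.07 (SE, on log2(FPKM + 1), as for all fold changes that follow; adjusted p = 5.4e-05 in limma). Among all tested genes 1.49% rose by at least as much and passed the test. JUNB is a single-exon gene on chromosome 19, 12791496 to 12793315 in GENCODE release 29 on GRCh38, and lies whole inside the span of HOOK2 on the opposite strand. HOOK2 went from 6.16 ± 0.327 to 12.0 ± 0.369 FPKM, a log2 fold change of 0.86 ± 0.07 (adjusted p = 0.000105 in limma). No source used here says whether fragments were assigned by strand, so reads of JUNB and HOOK2 may not have been told apart, and the part of this in either value was not tested.

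JUN, the founding subunit and the main substrate of the JNK kinases, rose less. It stood at 21.4, 23.5 and 21.8 FPKM in the control libraries and at 24.8, 29.6 and 30.2 FPKM in the 6p libraries. The groups did not overlap, and 6p replicate 1 lay nearest to the controls. The log2 fold change was 0.33 ± 0.09 (95% interval 0.12 to 0.54, adjusted p = 0.0204 in limma). This call was lost without control replicate 1 (adjusted p = 0.0706), 6p replicate 2 (0.0679) or 6p replicate 3 (0.0795), and after rescaling to TPM (0.16, adjusted p = 0.327), within a range of 2.48e-05 to 0.327 over settings. JUND, the most evenly expressed JUN protein in most cells, stood at 58.4, 59.2 and 64.1 FPKM in control and at 83.9, 73.1 and 76.1 FPKM in 6p. Here 6p replicate 1 was the highest library, and the groups did not overlap. JUND rose by 0.35 ± 0.08 (adjusted p = 0.00902 in limma), and by 0.21 with the trend on gene length removed.

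FOSL1 was by far the highest of the 10 members in both groups. Its levels were 385, 410.5 and 395 FPKM in control and 282, 335 and 343 FPKM in 6p, which places the control mean above 99.0% of tested genes. The 6p libraries lay below all controls, with 6p replicate 1 lowest. The mean went from 397 ± 12.8 to 320.1 ± 33.3 FPKM, and the log2 fold change was -0.31 ± 0.10 (95% interval -0.55 to -0.08, adjusted p = 0.0371 in limma). The call held without control replicate 3 (adjusted p = 0.0495) and was lost without control replicate 1 (adjusted p = 0.0737), control replicate 2 (0.143), 6p replicate 1 (0.0664), 6p replicate 2 (0.0624) or 6p replicate 3 (0.0571), and after median recentring (0.109), within a range of 0.000968 to 0.143 over settings. The value was lower in 6p under each of the 20 alternatives, from -0.51 to -0.23.

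FOSL2, which encodes FRA-2, stood at 7.72, 7.22 and 6.14 FPKM in control and at 3.59, 5.13 and 4.58 FPKM in 6p. Control replicate 3 and 6p replicate 1 were the lowest of their groups, and the groups did not overlap. FOSL2 fell by 0.57 ± 0.12 on the log2 scale (adjusted p = 0.00756 in limma), the largest fall among the members on the deposited values. Its 8787 nt make it the longest of the 10 genes. With the trend on gene length removed its change was -0.37, smaller than that of FOSL1, at -0.49.

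FOS, whose transcript is very short-lived, was low in every library. It had between 40 and 56 fragments a library, giving 1.20, 1.34 and 1.09 FPKM in control and 1.26, 1.08 and 1.59 FPKM in 6p. The groups overlapped, and 6p held both the lowest and the highest library. The log2 fold change was 0.06 ± 0.10, with a 95% interval from -0.17 to 0.28 (adjusted p = 0.657 in limma), and its sign changed with the setting: it was -0.06 after rescaling to TPM, -0.06 with the length trend removed and -0.03 without 6p replicate 3. FOSB, a close relative of FOS, had between 27 and 39 fragments a library. Its levels were 0.414, 0.562 and 0.428 FPKM in control and 0.358, 0.540 and 0.600 FPKM in 6p, again with overlap. Counting error alone gives FOSB an exact Poisson 95% interval of 0.277 to 0.595 FPKM in control replicate 1 and of 0.425 to 0.824 FPKM in 6p replicate 3. Fitted without the filter on low values, its log2 fold change was 0.03, with a 95% interval from -0.15 to 0.21 (adjusted p = 0.798 in limma). FOSB lies within the span of ERCC1 on the opposite strand, which was far higher, at 70.6 ± 4.12 FPKM in control and 75.2 ± 4.75 FPKM in 6p (SD, n = 3).

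**Figure D2:**
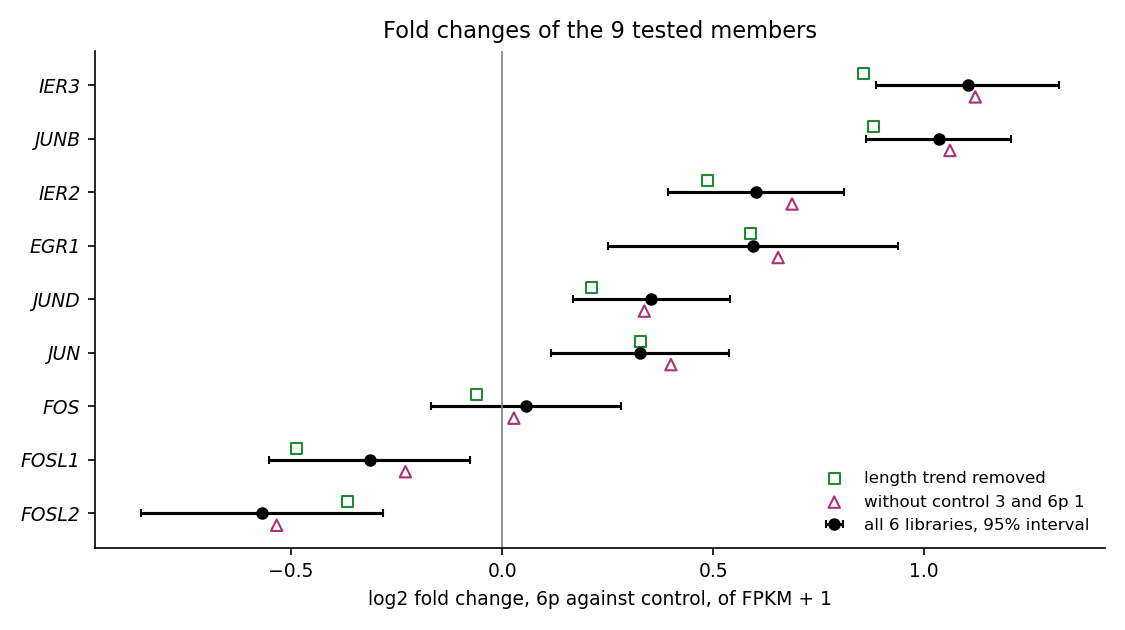
log2 fold changes of 6p against control for the 9 tested members on the log2(FPKM + 1) scale: filled points with 95% intervals from all 6 libraries, squares with the trend on gene length removed, triangles without control replicate 3 and 6p replicate 1. IER3 and JUNB lie farthest to the right at 1.10 and 1.03, FOSL2 farthest to the left at -0.57, and only FOS changes sign.

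The make-up of the families followed from these levels, and is given as a description. Summed over JUN, JUNB and JUND, the JUN family stood at 108, 113 and 116 FPKM in control and at 170, 161 and 172 FPKM in 6p. JUNB made up 26.4 ± 0.322% of that sum in control and 36.8 ± 1.27% in 6p (SD, n = 3), while JUND went from 53.8 ± 1.34% to 46.3 ± 2.76% and JUN from 19.8 ± 1.05% to 16.8 ± 1.99%. Shares within a library do not change when the library is multiplied by 1 factor, as in rescaling to TPM, but can change under quantile normalization or removal of the length trend. The FOS family summed to 395, 420 and 402 FPKM in control and to 287, 342 and 350 FPKM in 6p, nearly all of it FOSL1, whose share was 97.9 ± 0.233% in control and 98.1 ± 0.0813% in 6p. The ratio of the JUN sum to the FOS sum was 0.274, 0.269 and 0.289 in control and 0.591, 0.471 and 0.492 in 6p. The FPKM of FOSL1 was 13.4 ± 0.363 times that of JUNB in control and 5.19 ± 0.562 times in 6p.

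**Figure D3:**
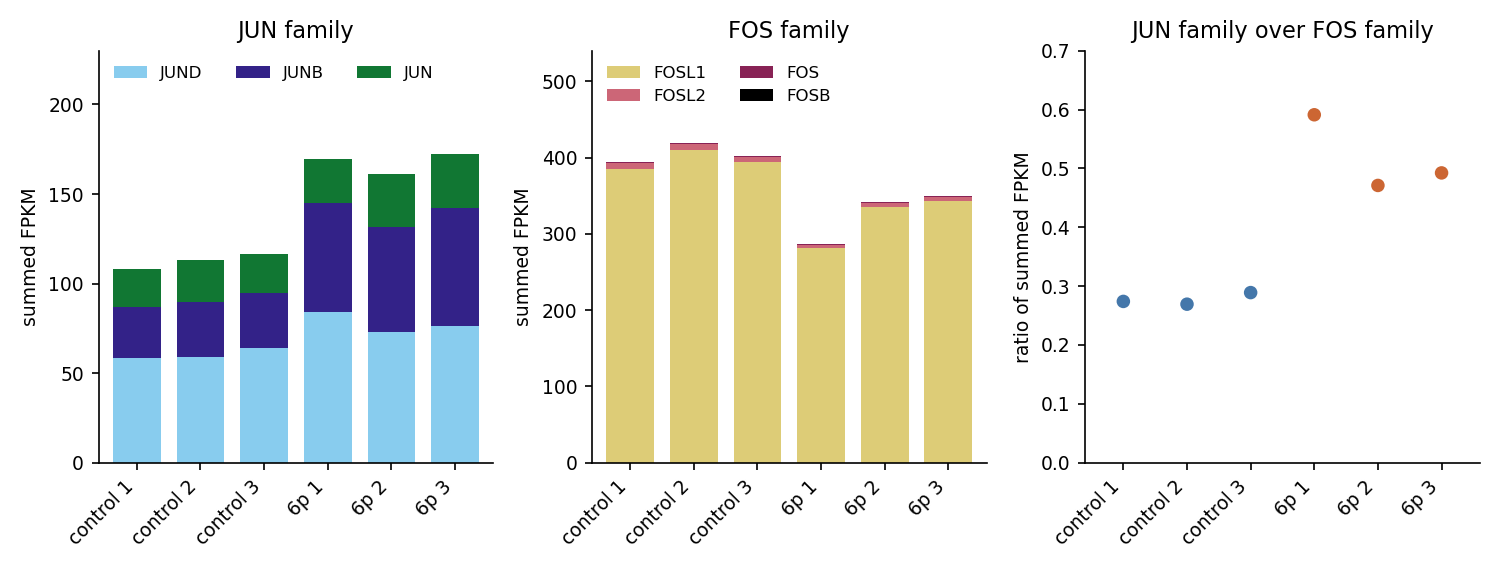
Summed FPKM of the JUN family and of the FOS family in each library, stacked by gene, and the ratio of the sums. The JUN family stands at 108 to 116 FPKM in control and 161 to 172 in 6p, the FOS family is nearly all FOSL1, and the ratio is at most 0.289 in control and at least 0.471 in 6p.

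EGR1, a zinc finger transcription factor of the early growth response, stood at 3.45, 4.49 and 3.19 FPKM in control and at 4.82, 6.32 and 7.28 FPKM in 6p. The groups came close, at control replicate 2 and 6p replicate 1, without overlap. It had 192 to 383 fragments a library and rose by 0.59 ± 0.15 (95% interval 0.25 to 0.94, adjusted p = 0.0134 in limma). That call was lost after rescaling to TPM (0.50, adjusted p = 0.0827, range over settings 0.00011 to 0.0827). IER2, a nuclear protein of the immediate early response, stood at 83.0, 84.9 and 100.6 FPKM in control and at 136, 134 and 137 FPKM in 6p. Control replicate 3 was the control nearest to the 6p libraries, which lay close together. IER2 rose by 0.60 ± 0.09 (adjusted p = 0.0014 in limma).

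IER3, also called IEX-1, a stress-induced regulator of survival and of ERK and NF-kB signalling, had the largest fold change of the members on the deposited values. Its levels were 26.5, 30.4 and 32.6 FPKM in control and 69.5, 60.9 and 65.1 FPKM in 6p. The lowest 6p library was well above the highest control. The mean went from 29.9 ± 3.09 to 65.1 ± 4.28 FPKM, a log2 fold change of 1.10 ± 0.09 (adjusted p = 0.000105 in limma). At 1237 nt it is the shortest of the 10 genes, and with the length trend removed the change was 0.86, next to 0.88 for JUNB. IER3 lies on chromosome 6, 30743199 to 30744554 on the minus strand, and its 394 bases shared with IER3-AS1 on the other strand could hold reads of either. IER2 and FOSL2 also overlap annotated non-coding genes.

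The order of the levels was nearly the same in both groups. In control it ran FOSL1, IER2, JUND, IER3, JUNB, JUN, FOSL2, EGR1, FOS and FOSB. IER3 and JUNB, at 29.9 and 29.7 FPKM, overlapped and are not told apart, while all other neighbours were separate in every library. In 6p EGR1, at 6.14 FPKM, stood above FOSL2, at 4.43 FPKM, with overlapping libraries. IER3 and JUNB again overlapped, at 65.1 and 61.8 FPKM. No other place changed.

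Gene length moved with the fold changes over the whole table. With tested genes split by length into 10 equal groups, the median log2 fold change was 0.25 in the shortest, which holds IER3, and 0.14 in the next, which holds JUNB, JUND, FOS, FOSL1 and IER2. EGR1 and JUN fell in groups with medians of 0.02 and -0.06, and FOSL2 in one with -0.19. Control replicate 3 and 6p replicate 1 deviated most alike from their group means, with a correlation of 0.634 over tested genes. The part of the length trend in this was not tested. With the trend removed in each library, the 8 called members were the same genes in the same directions; 25.5% of tested genes were then higher and 27.8% lower. The calls of all 8 also passed without these 2 libraries. Since the 2 stood out in the same values, this adds no separate support. Calls were then more common over all 11745 tested genes, with 3555 higher and 4187 lower, against 2506 and 2951 with all 6 libraries. Fragment totals ran from 16775655 to 19957335 a library. Of the markers chosen for the carcinoma line, KRT8, KRT18 and VIM were at 281 FPKM or more in every library, but EPCAM at 0.539 FPKM or less. Markers of leucocytes (PTPRC), endothelium (PECAM1 and VWF) and fibroblasts (COL1A1 and PDGFRB) were also at 0.539 FPKM or less. The macrophage marker CD68 stood between 56.4 and 71.0 FPKM.

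The other proteins that pair with JUN or FOS were taken as a list: ATF, BATF, JDP2 and small and large MAF genes. Of 13 listed, 9 were tested, with 4 higher and 1 lower, beside 21.3% and 25.1% of all tested genes. The list had a median log2 fold change of 0.22. That median was 0.07 after rescaling to TPM and -0.03 with the length trend removed, where all tested genes had -0.01. JDP2, a repressor that pairs with JUN proteins, went from 1.34 ± 0.0302 to 8.72 ± 0.621 FPKM, a log2 fold change of 2.05 ± 0.08 (adjusted p = 4.52e-06 in limma). ATF3, a stress-induced partner of JUN proteins and a known target of ATF4, went from 1.75 ± 0.112 to 6.69 ± 0.631 FPKM. The small MAF genes MAFF and MAFG rose by 0.66 ± 0.08 and 0.40 ± 0.08, the latter not after rescaling to TPM (0.235, adjusted p = 0.156). The lower gene was ATF2, the classical JUN partner at cyclic AMP response elements, at -0.32 ± 0.09. The count of lower genes in this list was 0 without control replicate 1, control replicate 2 or 6p replicate 3, and 2 without control replicate 3; ATF2 then had adjusted p = 0.0807, 0.0643 and 0.083 for the first 3 of these.

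Among 35 other immediate early genes, 29 were tested, with 17 higher and 2 lower, beside 21.3% and 25.1% of all tested genes. The median was 0.37 for the list and -0.04 for all tested genes. The leading genes of the list were PPP1R15A (GADD34), which guides dephosphorylation of eIF2α, from 17.2 ± 0.728 to 52.9 ± 1.98 FPKM, and RHOB, a short-lived small GTPase, from 19.5 ± 1.31 to 64.5 ± 1.46 FPKM. BTG1, an antiproliferative gene, rose by 1.18 ± 0.07, and ATF3 by 1.48 ± 0.09. The genes that fell were KLF6 and ZFP36L2, at -0.89 ± 0.09 and -0.42 ± 0.10. After rescaling to TPM 11 of the list were higher and 2 lower, beside 1526 and 3991 of all 11745 tested genes. EGR2, EGR3, EGR4, NR4A2, NR4A3 and ARC, named after their values were seen, did not reach the filter, and NR4A1 rose by 0.62 ± 0.10. ATF3 and MAFF stand in this list and in the preceding one.

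Genes for regulators of the members, and for turnover of JUN, were read against the 21.3% of tested genes that were higher and the 25.1% that were lower. Of 12 tested genes for SRF, its cofactors and the CREB group, 1 rose and 3 fell, with a median of -0.15. ELK3 and ELK1, ternary complex factors, changed by -0.43 ± 0.08 and -0.43 ± 0.12, and MRTFB, an SRF coactivator, by -0.55 ± 0.14, while CREM rose by 0.46 ± 0.08. SRF itself was at -0.10 ± 0.09 (adjusted p = 0.373 in limma). Of 18 tested genes of the JNK arm and of JUN turnover, 1 rose and 3 fell, with a median of -0.18. With the length trend removed the medians were -0.05 for the SRF list and -0.03 for the JNK list, beside -0.01 for all tested genes. The fallers were DDB1, MAP3K4 and CUL4A, at -0.45 ± 0.10, -0.41 ± 0.10 and -0.22 ± 0.07, and the riser was COP1, a ubiquitin ligase that marks JUN for degradation, at 0.38 ± 0.08 (after rescaling to TPM 0.28, adjusted p = 0.0783). The kinase genes MAPK8 and MAPK9 were at -0.20 ± 0.08 and -0.18 ± 0.07 (adjusted p = 0.0651 and 0.0673 in limma), and both passed after rescaling to TPM (0.03 and 0.0293); MAPK9 also passed without control replicate 3 (0.038). Lower genes numbered 1 without control replicate 2 in the SRF list, and 1 without control replicate 1 or 2 and 7 without control replicate 3 in the JNK list, and 8 in the JNK list after rescaling to TPM. Higher genes in the JNK list numbered 3 once the trend on length was taken out, and 2 without 6p replicate 1. Without control replicate 3 and 6p replicate 1 together, lower genes numbered 6 in the SRF list and 8 in the JNK list. Lower genes also grew in number over all 11745 tested genes, from 2951 on the deposited values of all 6 libraries. They numbered 4187 without both libraries, 3991 after rescaling to TPM and 3378 without control replicate 3 alone. Calls of single genes here were lost for ELK1 without control replicate 1 or 2 (adjusted p = 0.0673 and 0.0767), for MRTFB without control replicate 2 (0.0527), and for MAP3K4 without control replicate 1 or 2 (0.0524 and 0.0573). That of CUL4A was lost under 10 of 20 alternatives, with a change of -0.10 once the length trend was removed. NAB2, a corepressor that binds EGR1, rose by 0.55 ± 0.10, and its relative NAB1 was at -0.26 ± 0.10 (adjusted p = 0.0617 in limma), passing without control replicate 3 (0.0184) or 6p replicate 2 (0.048) and after rescaling to TPM (0.0428).

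Of 24 tested textbook AP-1 target genes, 16 rose and 3 fell, with a median of 0.50. Over all tested genes 21.3% were higher and 25.1% lower. After rescaling to TPM 12 target genes rose and 4 fell. With the length trend removed 15 rose and 4 fell, with a median of 0.40. VEGFA, the endothelial growth factor, went from 8.43 ± 0.367 to 36.2 ± 2.30 FPKM, a log2 fold change of 1.98 ± 0.08 (adjusted p = 4.52e-06 in limma). The secreted proteases MMP1 and MMP9 went from 1.42 ± 0.225 to 7.07 ± 0.543 FPKM and from 1.10 ± 0.0835 to 3.83 ± 0.134 FPKM. The genes that fell were HMGA2, the hyaluronan receptor CD44 and the receptor kinase AXL, at -0.63 ± 0.10, -0.50 ± 0.07 and -0.31 ± 0.11. The call of AXL (adjusted p = 0.0422 in limma) was lost under 8 of 20 alternatives, among them leaving out control replicate 1 (0.13) or 2 (0.149), or leaving out 6p replicate 1 (0.0906) or 3 (0.0988). The cytokine targets IL6 and CXCL8, named after their values were seen, were at 0.073 FPKM or less in every library. Many of these genes are also known targets of other factors, VEGFA of ATF4 and HIF among them, and the list was written with earlier results of these data known.

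**Figure D4:**
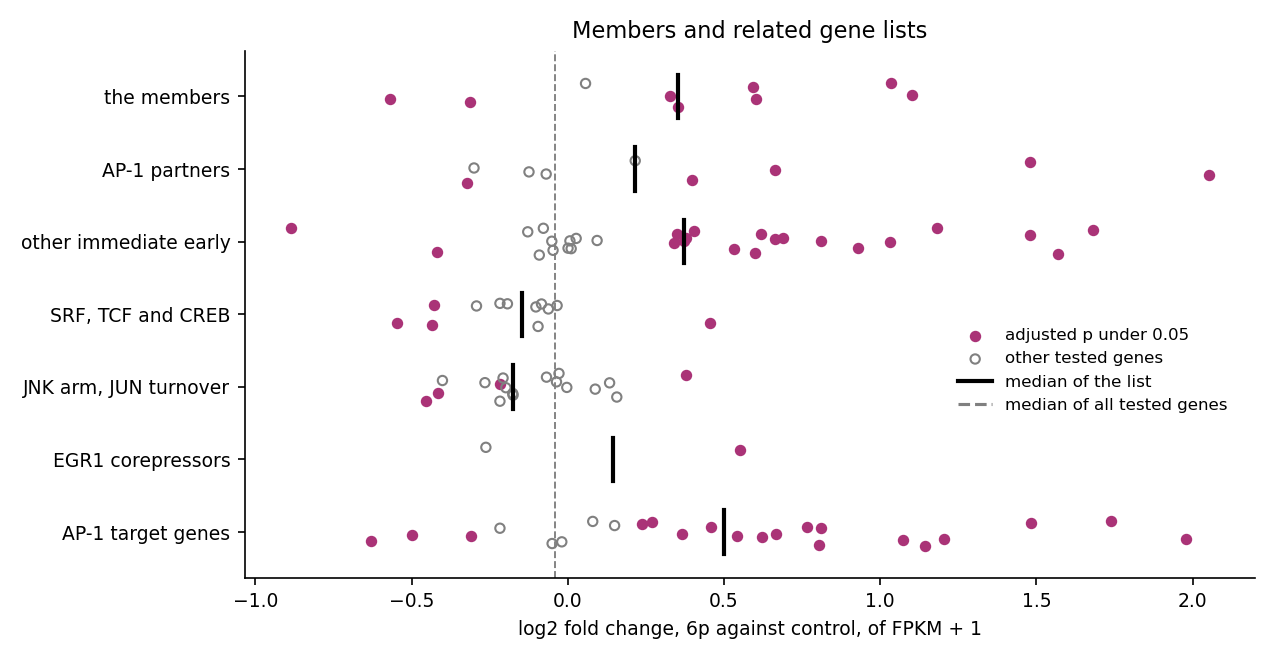
log2 fold changes of 6p against control, on the log2(FPKM + 1) scale, of the tested members and of the tested genes in each related list; filled points passed an adjusted p of 0.05 in limma, open points did not, thick bars are list medians and the dashed line the median of all tested genes. The medians are 0.35 for the members, 0.37 for other immediate early genes and 0.50 for AP-1 target genes, and lie below -0.1 for the SRF and JNK lists.

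Profiles over the 6 libraries were compared by the Euclidean distance of centred log2(FPKM + 1) values. Nearest to IER3, the member that rose most, were ATF4 (0.101), DNASE2 (0.11) and RPL12 (0.136), with log2 fold changes of 1.03, 1.06 and 1.09. Nearest to FOSL2, the member that fell most, were PDPK1 (0.0688), MTMR4 (0.0715) and MAPK6 (0.0781), with -0.52, -0.58 and -0.56. With 2 groups of 3 libraries such nearness rests largely on the size of the fold change.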

How the data were processed

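Libraries had been made with a kit that marks strand, per the labels' protocols. FPKM values of 16070 genes were deposited; the submitters' processing notes list Trimmomatic, HISAT2, HTSeq, Cufflinks and GRCh38, with no roles or versions. Fragment totals and gene lengths were solved from the values, which are whole fragments times a step (100% of 11745 tested genes, tolerance 0.001; Python 3.11.15).

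limma 3.58.1 (R 4.3.3; eBayes, trend and robust) was fitted to log2(FPKM + 1), which understates changes of low genes, for genes averaging at least 0.5 FPKM. Tests were two-sided and adjusted by Benjamini-Hochberg over all tested genes, with a threshold of 0.05. The fit was also run on simulated counts with few changed genes and no length trend. That run checks the code only, and no support for the calls is drawn from it.

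The members and lists were chosen with earlier results of these data known. Named were all 10 members, up to 4 called genes per list, those of lowest adjusted p, and, for the members with the largest rise and fall, the 3 nearest profiles, leaving out clone, pseudogene, antisense and open reading frame names; 1 gene of the target list and 1 marker are not reported here. Genes named to spell out a count of 5 or fewer, the overlapping HOOK2 and ERCC1, and SRF, MAPK8, MAPK9, NAB1 and NR4A1, were chosen after their values were seen. Alternatives were pseudocounts of 0.1 and 0.01, filters of none, 1 and 5 FPKM, TPM, upper-quartile, median and quantile scaling, loess removal of the length trend (span 0.5), eBayes without trend and robust, voom on recovered fragments, a replicate block, and leaving out libraries. Coordinates are from GENCODE release 29, promoters from RefSeq.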

Additional observations from a re-analysis of the deposited data

How the results depend on the processing

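Of 178 values of the 9 tested members under 20 alternatives, 163 kept their direction and their side of the threshold, 12 lost the call (7 of FOSL1, 4 of JUN and 1 of EGR1) and 3, all of FOS, changed sign (-0.061 after rescaling to TPM, -0.060 with the length trend removed and from -0.028 to 0.13 over the libraries left out in turn). ERCC1, which overlaps FOSB, went to -0.088 after rescaling to TPM. The causes were not tested. Leaving out a library in turn gave 5 to 6 higher and 1 to 2 lower members, and 1724 to 2706 higher and 1793 to 3378 lower genes over the whole table, the 1793 being without control replicate 2. Median recentring left 1 lower member. Rescaling to TPM gave 1526 higher genes. Whether the replicate numbers pair the libraries cannot be told from these values. Deviations from the group means correlated at -0.569, 0.326 and -0.417 for numbers 1 to 3. With 3 libraries a group these correlations depend on one another, and control replicate 3 with 6p replicate 1 gave 0.634. With the replicate number as a block 1 member was lower, FOSL1 having adjusted p = 0.104 in limma, and 1920 genes were lower over the whole table; the calls of ATF2 (0.0573), ELK1 (0.0524), CUL4A (0.111) and AXL (0.125) were also lost. FOS and FOSB, at 56 fragments or fewer a library, are limited by depth. No exact test over 3 and 3 libraries can reach the threshold, so single genes rest on limma.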
